A study of Mus musculus with 8 samples.

Results

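Circular RNAs (circRNAs) were examined for 6 host genes, Ezh2, Arid1a, Foxp1, Mettl9, Fam160b1 and Rnf169, whose back-spliced reads were among the most abundant in bone marrow B cells. The 6 genes were chosen by their back-spliced reads, so their circRNA levels are a description and were not tested. All 13 circRNAs assigned to them were taken from the 1005 circRNAs of the series, which came from 783 host genes, and the same 6 genes were looked up among the 22298 genes of the mRNA table. The libraries were made from rRNA-depleted RNA of 4 populations sorted from wild type C57BL/6 bone marrow, the pro-B, pre-B, immature and mature B cells. All were B220+, with mature cells gated as B220hi. Pro-B and pre-B cells were IgM- and the later stages IgM+, and CD43 was required on pro-B cells and absent from the other gates. Each stage had 1 library, with the cells of 3 female mice of 8 to 10 weeks pooled, and there was no treatment. No difference between stages therefore has a replicate check, and the 95% intervals given here are exact and cover counting error only. Most back-spliced counts were even, so reads may have been counted in pairs, and the intervals of back-spliced reads may then be too narrow.

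A circRNA forms when the splicing machinery joins the end of an exon to the start of an upstream exon, or of the same exon, instead of to the next exon downstream. The product has no free ends and no poly(A) tail, and it is generally degraded more slowly than the linear mRNA of the same gene. Both RNAs start from the same transcripts, so the circRNA of a gene is often read beside its mRNA. Of the 6 hosts, Ezh2 encodes the histone H3 lysine methyltransferase of Polycomb repressive complex 2 (PRC2), Arid1a a DNA-binding subunit of the SWI/SNF chromatin remodelling complex, and Foxp1 a forkhead transcription factor. Ezh2 and Foxp1 are both required in early B-cell development. Mettl9 encodes a protein histidine methyltransferase, Fam160b1 a member of the family that pairs with FTS and Hook proteins on cargo moved by dynein, and Rnf169 a RING finger protein that binds ubiquitinated histone H2A at DNA breaks.

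The 4 libraries held 1370, 1719, 1751 and 1531 back-spliced reads in the order of development. Their mRNA counts were less even, with 867920 in pro-B, 240231 in pre-B, 223495 in immature B and 849350 in mature B cells. The counts in the lncRNA table moved the other way, with 3469757 and 3227162 in the pre-B and immature B libraries against 2795519 and 2765507 in the pro-B and mature B libraries. Per library and scaled to the total of the mRNA table (CPM), 6 pro-B marker genes summed to 2321 in the pro-B library against 44.7 to 179 in the others, and 6 mature B marker genes to 6054 in the mature B library against 315 to 1119. The 4 pre-B marker genes went against the label, with 1278 in pro-B and 1066 in pre-B cells (576 and 15.2 in the later stages), and the 4 immature B marker genes had 4337, 7530, 9504 and 5087. The 5 markers of all B cells ranged from 3993 to 5706, those of myeloid cells from 790 to 1049, of erythroid cells from 85 to 264 and of plasma cells from 181 to 560. The 6 T and NK cell markers had 178 counts in the pro-B library, where 5 of 6 were above 0, and 0, 0 and 5 counts in the pre-B, immature B and mature B libraries. The part of these cells in the results was not tested.

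The 6 hosts held 498 of 6371 back-spliced reads, or 7.82%. By library their share was 8.69% in pro-B (119 reads, interval 7.25% to 10.3%), 9.71% in pre-B (167 reads, 8.36% to 11.2%), 5.94% in immature B (104 reads, 4.88% to 7.15%) and 7.05% in mature cells (108 reads, 5.82% to 8.45%). The share was thus highest in pre-B cells and lowest in immature B cells, on the reads by which the hosts were chosen. Ezh2 led with 153 reads, followed by Foxp1 with 146 and Arid1a with 102.

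Summed over the libraries, the leading circRNAs of Ezh2 (134 reads), Arid1a (100) and Foxp1 (98) were the 3 highest of all circRNAs. The next were those of Aff3 with 47 and Ikzf1 with 46 reads, so a gap separated the first 3 from the rest. The circRNA of Mettl9 ranked 6 with 41 reads, Fam160b1 ranked 10 with 32 and Rnf169 shared rank 20 with 24. Between these stood circRNAs of Sp3 and Rasa2 (36 reads each), Aff1 (34), Syk (31), Cdyl (30), Nsd2 and Pou2af1 (28 each), Tut4 (27), Kansl1l and Tcf25 (25 each), Creb1 (24) and a gene without an mRNA row (25). In the pro-B library alone, 5 of the hosts held the 5 highest circRNAs, with Ezh2 at 38, Arid1a at 19, Fam160b1 at 18, Mettl9 at 17 and Rnf169 at 16 reads. The first circRNA outside them in that library was from Syk, with 13 reads.

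**Figure D1:**
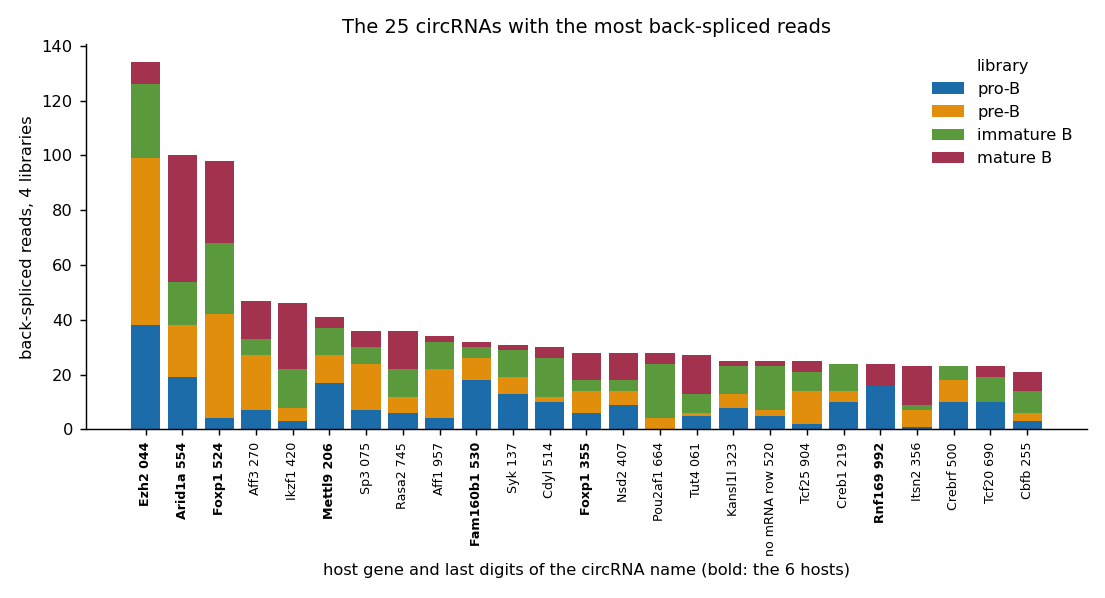
Back-spliced reads (y axis, summed over 4 libraries, coloured by library) of the 25 circRNAs with the most reads (x axis, host gene and last digits of the circRNA name). The circRNAs of the 6 hosts are in bold, and those of Ezh2, Arid1a and Foxp1 (134, 100 and 98 reads) stand above the rest, of which the highest has 47.

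Annotated exons made up most of the circRNAs of these hosts. Of the 13 circRNAs, 9 were built from annotated exons and held 478 of the 498 reads (96%), against 51.5% of reads and 36.4% of circRNAs over the whole table. None was antisense (0 of 13). The other 4 were all from Foxp1, 3 intronic and 1 spanning an exon and an intron, with 4 to 6 reads each. The circRNAs of other genes ranked between those of the hosts were also made of annotated exons, except the antisense one of Tcf25. A high share of exonic reads was therefore not particular to these hosts. Of the 13 circRNAs, 6 had reads in all 4 libraries and 4 in 1 library only. The paper reports that most circRNAs expressed at a stage were specific to that stage. Among the 13, those with reads in 1 library only were a minority. The circRNAs of these hosts were thus confined to 1 library less often than circRNAs of the whole series. The hosts were chosen by their back-spliced reads, and how far the difference follows from that choice was not tested. The 6 in all libraries had 28 to 134 reads each and the 4 in 1 library had 2 to 6. Whether the 13 differed in this from other circRNAs with as many reads was not tested. Among the 13, only those of Mettl9 and Fam160b1 carried a circBase name, mm9_circ_009705 and mm9_circ_007735. The coordinates are given as deposited. The labels' processing notes name mm9, yet all 13 circRNAs, and 346 of 351 exonic circRNAs whose host RefSeq lists, lay inside the host gene of the GRCm38 annotation within 100 bases, so the positions are read here as GRCm38.

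Ezh2, the PRC2 methyltransferase, produced 2 circRNAs that shared 1 end. The leading one (novel_circ_000044, chr6:47576536-47577667, minus strand) joined annotated exons into 253 nucleotides and left out 879 intronic bases. It had 38 reads in pro-B, 61 in pre-B, 27 in immature B and 8 in mature B cells. The second (novel_circ_000558, chr6:47576563-47577667) was 27 bases shorter at the other end and had 1, 12, 6 and 0 reads. Both were highest in pre-B cells and lowest in mature B cells. The shorter form made up 2.56% of Ezh2 back-spliced reads in pro-B (interval 0.0649% to 13.5%), 16.4% in pre-B (8.79% to 27%), 18.2% in immature B (6.98% to 35.5%) and 0% in mature B cells (up to 36.9%), and all of these intervals overlapped.

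The mRNA of Ezh2 had 323 counts in pro-B, 40 in pre-B, 8 in immature B and 32 in mature B cells. Scaled to the total of the mRNA table (CPM, per 1000000 counts), this was 372 (interval 333 to 415), 167 (119 to 227), 35.8 (15.5 to 70.5) and 37.7 (25.8 to 53.2). The mRNA was thus highest in pro-B cells, lower in pre-B cells, and lowest in immature B and mature B cells, which could not be separated. The back-spliced reads were ordered differently, with the pre-B library above the pro-B library (RPM, or back-spliced reads per 1000000, of 42467 against 28467) on intervals that overlapped. From immature B to mature B cells the RPM of Ezh2 circRNAs was 3.61-fold lower (18846 against 5225), while the mRNA was within counting error (log2 ratio 0.07, interval -1.07 to 1.40).

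Arid1a, the SWI/SNF subunit, had its main circRNA at chr4:133719537-133723051 (novel_circ_000554, minus strand, 780 nucleotides spliced). It had 19 reads in pro-B, 19 in pre-B, 16 in immature B and 46 in mature B cells. A second exonic circRNA (novel_circ_000844, chr4:133693856-133719653, 831 nucleotides) overlapped it by 117 bases and had 2 reads, both in pre-B cells. The mature B library stood above the others at 30046 RPM (interval 21997 to 40077), against 9138 to 13869 in the other 3, whose intervals overlapped one another. The pro-B interval ended at 21658. If reads were counted in pairs the intervals would be wider, and whether the mature B library would still stand apart was not tested.

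Arid1a mRNA had 510, 68.3, 89.1 and 685 estimated counts in the 4 libraries from pro-B to mature B, which gave a CPM of 587 (538 to 641), 285 (220 to 359), 399 (320 to 490) and 807 (747 to 869). Both the mRNA and the circRNA were highest in mature B cells and second in pro-B cells, but the RPM of the circRNAs in pro-B cells could not be separated from that in pre-B or immature B cells.

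Foxp1, the forkhead factor, had the most circRNAs of the 6 hosts, with 6. The 2 exonic ones shared the coordinate chr6:99003200, which on the minus strand is their downstream end. Their upstream ends were at 99016665 (novel_circ_000524, 1281 nucleotides) and 99010057 (novel_circ_000355, 1053 nucleotides). The longer had 4 reads in pro-B, 38 in pre-B, 26 in immature B and 30 in mature B cells. The shorter had 6, 8, 4 and 10 reads and varied less. The longer form held 40% of the reads of both in pro-B cells (4 of 10, interval 12.2% to 73.8%), 82.6% in pre-B (68.6% to 92.2%), 86.7% in immature B (69.3% to 96.2%) and 75% in mature cells (58.8% to 87.3%). The pro-B share was the lowest, on 10 reads, and its interval overlapped those of the other stages.

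The 4 remaining Foxp1 circRNAs lay within introns or across an exon and an intron, and each was in 1 or 2 libraries. The intronic ones at chr6:99211501-99215242 (6 reads, pre-B), chr6:99225881-99239506 (5 reads, immature B) and chr6:99237238-99237603 (3 reads in pre-B, 2 in immature B), and the one at chr6:99039941-99044941 (4 reads, immature B), had no read in the pro-B or mature B library. At the floor of 3 reads, a count of 0 allows up to 0.219% of the back-spliced reads in the pro-B and 0.196% in the mature B library, so their absence there was not shown.

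Foxp1 mRNA had 402, 61.2, 45.7 and 616 estimated counts, or a CPM of 463 (419 to 511), 255 (194 to 326), 204 (151 to 275) and 725 (669 to 785). It was highest in mature B cells, second in pro-B cells and lowest in pre-B and immature B cells, whose intervals overlapped. The circRNAs took another order. All circRNAs of the gene came to 10, 55, 41 and 40 reads, or 7299, 31995, 23415 and 26127 RPM, so pro-B cells were lowest and the other 3 stages could not be separated. From pro-B to pre-B cells the RPM was 4.38-fold higher (log2 ratio 2.13, interval 1.15 to 3.27), while the mRNA was 1.82-fold lower by CPM.

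Mettl9, the histidine methyltransferase, had 1 circRNA (novel_circ_000206, chr7:121047838-121057399, plus strand, 586 nucleotides). It had 17 reads in pro-B, 10 in pre-B, 10 in immature B and 4 in mature B cells, which was 4.75-fold lower by RPM in mature B than in pro-B cells (log2 ratio -2.25, interval -4.28 to -0.63). Its mRNA had 40, 9, 6 and 29 counts, or a CPM of 46.1, 37.5, 26.8 and 34.1, and the intervals of all 4 libraries overlapped. The mRNA in mature B cells was 1.35-fold lower than in pro-B cells, within counting error (log2 ratio -0.43, interval -1.17 to 0.29).

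Fam160b1 had 1 circRNA (novel_circ_000530, chr19:57378549-57379175, plus strand, 491 nucleotides). It had 18 reads in pro-B, 8 in pre-B, 4 in immature B and 2 in mature B cells, 10.1-fold lower by RPM in mature B than in pro-B cells (log2 ratio -3.33, interval -6.48 to -1.27). From pro-B to pre-B cells it was 2.82-fold lower (interval on the log2 scale -2.91 to -0.22), and in the later steps the interval of the ratio included 0. All 4 read counts were even. If reads were counted in pairs, the interval from pro-B to pre-B cells would be wider, and whether it would still exclude 0 was not tested. The mRNA of Fam160b1 was listed at 0 in all 4 libraries, as it was for 7 host genes in all, of which Fam160b1 alone had 10 or more exonic back-spliced reads. Genes used by every cell, Cops5 and Ddx42, were also listed at 0 in all 4 libraries, while a further such gene, Hprt, had 43, 8, 0 and 40 counts. A listing at 0 was therefore not read as absence of the mRNA, and no circRNA level relative to mRNA is given for Fam160b1.

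Rnf169, the reader of ubiquitinated H2A, had 1 circRNA (novel_circ_000992, chr7:99935162-99955540, minus strand, 340 nucleotides spliced across 20379 bases of the genome). It had 16 reads in pro-B, 0 in pre-B, 0 in immature B and 8 in mature B cells. At a floor of 3 reads, the zeros allow a share of up to 0.175% in the pre-B and 0.171% in the immature B library, against 1.17% in pro-B and 0.523% in mature B cells. Its mRNA was also at its lowest in those libraries, with 170 counts in pro-B, 3 in pre-B, 10 in immature B and 83 in mature B cells, or a CPM of 196 (168 to 228), 12.5 (2.58 to 36.5), 44.7 (21.5 to 82.3) and 97.7 (77.8 to 121). The 2 libraries without a back-spliced read of Rnf169 were thus the 2 with the lowest mRNA level, and the pro-B library was highest in both.

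**Figure D2:**
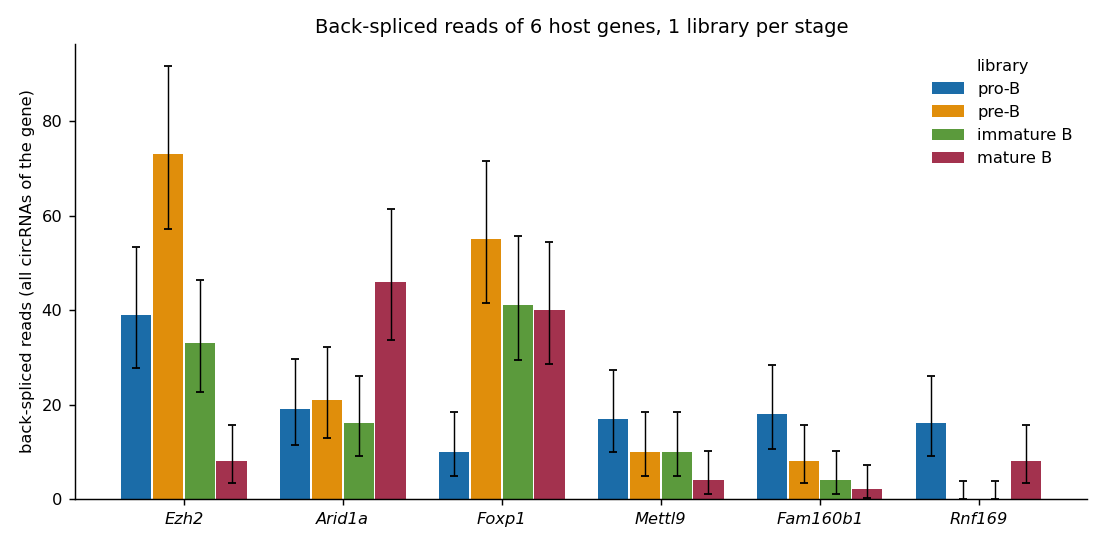
Back-spliced reads (y axis, all circRNAs of the gene) of the 6 hosts (x axis) in 1 library per stage, with exact 95% Poisson intervals as error bars. Ezh2 and Foxp1 are highest in pre-B cells (73 and 55 reads), Arid1a in mature B cells (46), and Mettl9, Fam160b1 and Rnf169 in pro-B cells (17, 18 and 16).

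The mRNA of each host was compared between neighbouring stages, and between mature B and pro-B cells, with a gene called when its CPM differed by at least 2-fold on at least 10 counts over both libraries. From pro-B to pre-B cells, 3 of 5 hosts were lower: Ezh2 (log2 ratio -1.16), Arid1a (-1.05) and Rnf169 (-3.97, interval -6.26 to -2.40, on 3 counts in pre-B cells). Over all genes 27.5% were called lower and 17.9% higher in that comparison, and none of the 5 hosts was higher. The median gene had a log2 ratio of -0.26, and relative to it the 3 hosts stood at -0.90, -0.78 and -3.71. Foxp1 (-0.86, interval -1.28 to -0.48) and Mettl9 (-0.30, interval -1.53 to 0.77) were not called. With size factors of the RLE method, 1 host in place of 3 was called lower, Rnf169. In such bulk samples fewer cells of a type and less RNA per cell cannot be told apart.

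From pre-B to immature B cells Ezh2 was lower (log2 ratio -2.22, interval -3.52 to -1.10), where 18.9% of genes were called lower. Rnf169 was higher (1.84, interval -0.12 to 4.34) on 3 and 10 counts, where 18.5% of genes were called higher. The interval of Rnf169 included no difference. Arid1a, Foxp1 and Mettl9 lay between -0.48 and 0.49.

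From immature B to mature B cells, Foxp1 (log2 ratio 1.83, interval 1.38 to 2.28), Arid1a (1.02, interval 0.70 to 1.35) and Rnf169 (1.13, interval 0.18 to 2.24) were higher. Over all genes 22.5% were called higher and 21.6% lower in that comparison. Ezh2 (0.07) and Mettl9 (0.35) were not called, and none of the hosts was lower.

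Between the 2 libraries with the most mRNA counts, mature B and pro-B, Ezh2 mRNA was 9.88-fold lower in mature B cells (log2 ratio -3.30, interval -3.88 to -2.78). Rnf169 was 2-fold lower (interval on the log2 scale -1.40 to -0.62), at the threshold, and was no longer called with TMM or RLE factors. Over all genes 23.6% were called lower and 13.3% higher. Arid1a (0.46) and Foxp1 (0.65) had intervals above 0 and stayed under the 2-fold threshold.

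**Figure D3:**
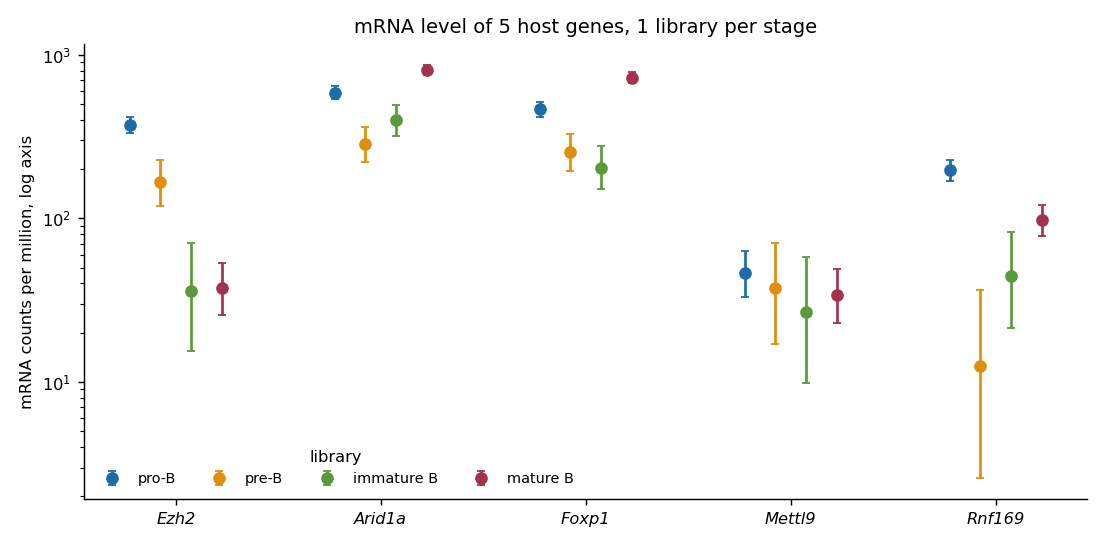
mRNA level (y axis, CPM, log axis) of the 5 hosts with mRNA counts (x axis) in 1 library per stage, with exact 95% intervals. Ezh2 goes from 372 in pro-B to 35.8 and 37.7 in immature B and mature B cells, and Arid1a and Foxp1 are highest in mature B cells (807 and 725).

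The FPKM values that the authors deposited are scaled by transcript length and by all fragments mapped to reference genes. They gave the same direction for every called host but other sizes. Over the same tested genes, the median log2 ratio was -2.30 from pro-B to pre-B cells and 2.03 from immature B to mature B cells by FPKM, with 0.001 in place of 0, against -0.26 and 0.07 by CPM. The FPKM values thus kept the lower mRNA level of the pre-B and immature B libraries, which CPM takes out by its scaling. By FPKM, Ezh2 had 25.2, 5.98, 1.34 and 2.45, and Arid1a 14.3, 1.62, 2.19 and 18.1, in the libraries from pro-B to mature B. Foxp1 had 37.5, 12.2, 10.7 and 60.3, above Arid1a in every library on this scale, which corrects for length. Mettl9 had 7.43, 1.75, 1.54 and 7.71 and Rnf169 7.04, 0.07, 1.81 and 3.29. For Mettl9, mature B cells were therefore the highest library by FPKM and pro-B cells by CPM. Between mature B and pro-B cells the shifts of the 2 scales were alike (-0.17 by FPKM and -0.18 by CPM), and Ezh2 had a log2 ratio of -3.36 by FPKM.

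Back-spliced reads were then set against the mRNA counts of the same gene. The 5 hosts with mRNA counts had 69.9 back-spliced reads per 1000 mRNA counts in pro-B (interval 56.6 to 85.6), 876 in pre-B (702 to 1087), 630 in immature B (485 to 813) and 73.4 in mature cells (59.6 to 89.4). The 754 other host genes in the mRNA table, summed, had 7.59, 43.9, 50.1 and 8.44. Both were thus higher in the pre-B and immature B libraries, the 2 with the fewest mRNA counts. Where mRNA counts are lower by the same factor for every gene, the ratio of every host rises alike. Each host was therefore also set against the other hosts of the same library. Whether the mRNA counts were lower by the same factor for every gene was not tested. Because the hosts were chosen on back-spliced reads, a ratio above that of other hosts follows from the choice.

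Ezh2 had 121 back-spliced reads per 1000 mRNA counts in pro-B (interval 84.3 to 169), 1825 in pre-B (1225 to 2755), 4125 in immature B (1868 to 10337) and 250 in mature B cells (99.5 to 554). In pre-B and immature B cells Ezh2 had more back-spliced reads than mRNA counts as deposited. Most back-spliced counts are even, and if reads were counted in pairs the ratio would be 912 in pre-B and 2062 in immature B cells, above the mRNA counts in immature B cells only. Each ratio was then divided by that of the other hosts in the same library, which removes a factor that all hosts share. Ezh2 stood at 15.9 times in pro-B (11.1 to 22.3), 41.6 in pre-B (27.9 to 62.7), 82.4 in immature B (37.3 to 206) and 29.6 in mature cells (11.8 to 65.7). The pro-B library stayed the lowest after that division and the immature B library, on 8 mRNA counts, the highest. The pro-B interval lay below those of pre-B and immature B cells but overlapped that of mature B cells. The pre-B, immature B and mature B intervals overlapped one another.

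Foxp1 had 24.9 (11.8 to 46.2), 898 (615 to 1320), 898 (571 to 1388) and 65 (45.9 to 89.5) back-spliced reads per 1000 mRNA counts from pro-B to mature B. Relative to the other hosts this was 3.28 times in pro-B (1.55 to 6.09), 20.5 in pre-B (14 to 30.1), 17.9 in immature B (11.4 to 27.7) and 7.7 in mature cells (5.44 to 10.6). The pre-B and immature B libraries stayed the highest after the division, with intervals above those of the pro-B and mature B libraries. The immature B interval began at 11.4 and the mature B interval ended at 10.6. If reads were counted in pairs the intervals would be wider, and whether these 2 would still be apart was not tested. The pro-B library was the lowest, with an interval that overlapped that of mature B cells. From pro-B to pre-B cells the ratio of Foxp1 was 36.1-fold higher, against 15.1-fold for Ezh2, 8.24-fold for Arid1a, 2.61-fold for Mettl9 and 5.78-fold for the other hosts.

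Arid1a had 37.3, 307, 180 and 67.1 back-spliced reads per 1000 mRNA counts. Relative to the other hosts it stood at 4.91, 7, 3.59 and 7.96 times, with intervals of 2.92 to 7.75, 4.1 to 11.6, 1.97 to 6.15 and 5.77 to 10.7. These intervals all overlapped, and the order of the stages was not the same as before the division.

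Mettl9 had 425, 1111, 1667 and 138 back-spliced reads per 1000 mRNA counts, on 6 to 40 mRNA counts per library. Relative to the other hosts it was highest in pro-B cells, at 56 times (29.8 to 101), and lowest in mature B cells, at 16.3 times (4.17 to 46.6), with overlapping intervals. Rnf169 had 94.1 in pro-B and 96.4 in mature B cells, within counting error of each other (fold 1.02). Relative to the other hosts it stood at 12.4 times in pro-B (6.93 to 20.7) and 11.4 in mature B cells (4.78 to 23.6). Its zeros in pre-B and immature B cells rest on 3 and 10 mRNA counts, with upper limits of 55.1 and 8.91 times. In pre-B cells a ratio as in pro-B and mature B cells was thus not detectable. The limit in immature B cells lay under both values but within their intervals.

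**Figure D4:**
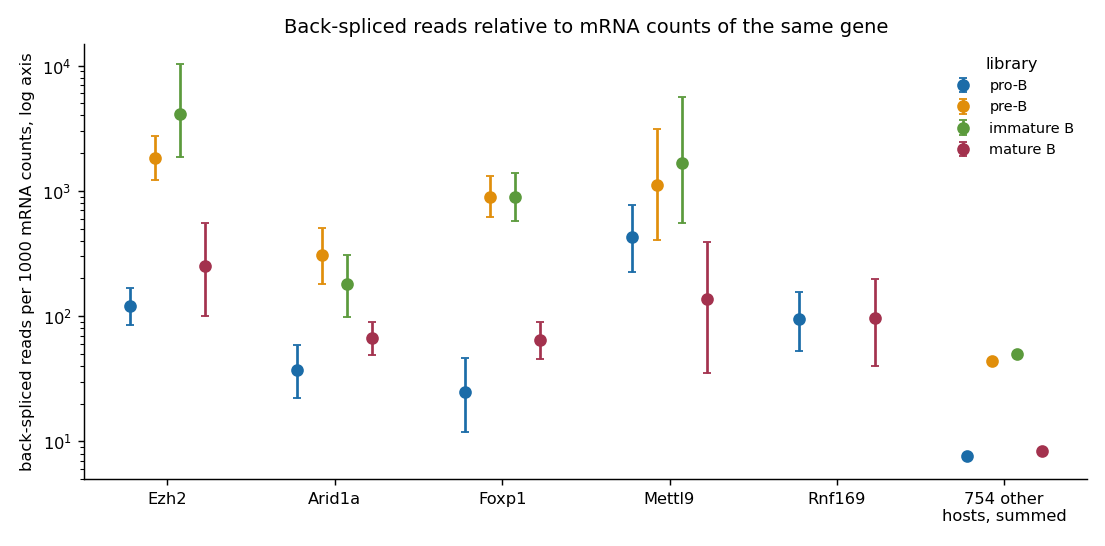
Back-spliced reads per 1000 mRNA counts of the same gene (y axis, log axis) for the 5 hosts with mRNA counts and for 754 other hosts summed (x axis), by library, with exact 95% intervals for the 5 hosts. Ezh2 runs from 121 in pro-B to 4125 in immature B cells, the other hosts from 7.59 to 50.1, and Rnf169 had no back-spliced read in the pre-B and immature B libraries and no point there.

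Among 93 hosts with at least 10 exonic back-spliced reads and mRNA counts, the median over the 4 libraries was 39.7 exonic back-spliced reads per 1000 mRNA counts. Mettl9 (488) ranked 3 and Ezh2 (380) ranked 4, after Rev1 (5333 on 3 mRNA counts) and Alg12 (955 on 22). This rank pools 4 libraries whose ratios differ for all hosts, so it also reflects from which library the reads of a host came. Foxp1 (112) ranked 18, Rnf169 (90.2) ranked 21 and Arid1a (75.4) ranked 27. By this measure the 3 hosts with the most back-spliced reads did not lead together, and Arid1a and Foxp1 combined many back-spliced reads with many mRNA counts.

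The library of the highest level was the same for circRNA and mRNA in 3 of 5 hosts, Arid1a (mature B), Mettl9 and Rnf169 (both pro-B), and by FPKM in 2 of 5. For Ezh2 and Foxp1 it differed, with the circRNAs highest in pre-B cells and the mRNA highest in pro-B and mature B cells. For Ezh2 the pro-B and pre-B intervals of the circRNA overlapped, and for Foxp1 the pre-B and mature B intervals did, so the highest library of their circRNAs was not fixed by these counts.

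**Figure D5:**
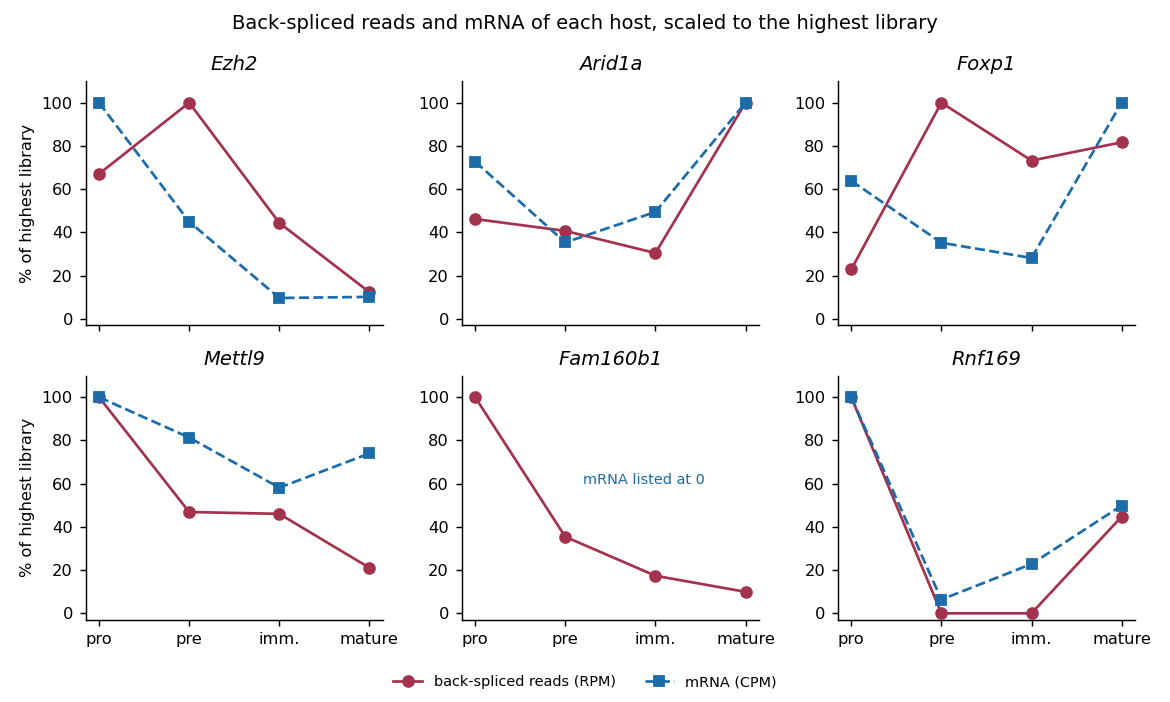
Back-spliced reads (RPM, circles) and mRNA (CPM, squares) of each host in the 4 libraries (x axis), each as a percent of its highest library (y axis). Both lines peak in the same library for Arid1a, Mettl9 and Rnf169 but not for Ezh2 and Foxp1, whose circRNAs peak in the pre-B library while the mRNA peaks in the pro-B and mature B libraries.

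Other genes of the complexes around the hosts were read from lists that include the hosts. Of 91 calls in these lists, 73 kept their direction by FPKM and 15 reversed, and the reversed genes named here are given with both scales. The shares over all genes in each comparison are those given with the hosts. In the PRC2 list, 4 of 11 genes were lower and 1 higher from pro-B to pre-B cells, where 27.5% and 17.9% of all genes were, with a median log2 ratio of -0.76 against -0.26 over all genes. Eed, the PRC2 subunit that binds trimethylated H3 lysine 27, was 3.88-fold lower (64.5 to 16.7 CPM) and Ezh1, the paralogue of Ezh2, 2.91-fold lower (48.4 to 16.7). In the next step, from pre-B to immature B cells, Eed went the other way from Ezh2, 6.72-fold higher (16.7 to 112 CPM, on 4 and 25 counts). From immature B to mature B cells 3 of 9 tested genes were higher, with a median of 0.74. Phf1 (8.95 to 77.7 CPM, on 2 and 66 counts) and Mtf2 (22.4 to 90.7, on 5 and 77 counts), both Polycomb-like subunits, were ahead. With its 2 counts set to the floor of 3, Phf1 was 5.79-fold higher. Between mature B and pro-B cells Ezh2 had the largest difference of the list, with 2 of 11 genes higher and 3 lower.

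In the SWI/SNF list, 8 of 18 tested genes were lower and 1 higher from pro-B to pre-B cells (27.5% and 17.9% over all genes), Arid1a among the lower ones, with a median of -0.72. Pbrm1, a subunit of the PBAF form, was 6.02-fold lower (376 to 62.4 CPM) and Ss18 4.06-fold lower (101 to 25). In the next step 4 of 15 were lower and 1 higher (18.9% and 18.5% over all genes), with the ATPase Smarca4 (1208 to 220 CPM) and Bcl7a (596 to 145) ahead. From immature B to mature B cells 7 of 17 were higher and 2 lower (22.5% and 21.6% over all genes). The ATPase Smarca2 (35.8 to 244 CPM) and Ss18 (8.95 to 87.1, on 2 and 74 counts) were ahead. The median log2 ratio was 0.70 against 0.07 over all genes. Mature B cells had 8.86-fold less Smarca4 than pro-B cells (2685 to 303 CPM) and 8.07-fold less Bcl7c (38 to 4.71), where 5 of 18 were lower and 2 higher (23.6% and 13.3% over all genes).

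The FOXP list had 3 genes with counts, with a median log2 ratio of 0.13 from pro-B to pre-B cells and 0.62 from immature B to mature B cells. From pro-B to pre-B cells Foxp3, the regulatory T cell factor, was called higher on 9.63 and 12.1 estimated counts (11.1 to 50.5 CPM) and lower again from immature B to mature B cells (66.8 to 15.8). Foxp4 was 2.02-fold lower from pre-B to immature B cells (162 to 80.5 CPM). In the FTS-Hook-FHIP list around Fam160b1, 3 of 6 tested genes were lower and 1 higher from pro-B to pre-B cells, with Hook3, a dynein adaptor, 3.11-fold lower (104 to 33.3 CPM) and Aktip, the FTS protein, 2.77-fold higher by CPM (54.7 to 151) with a log2 ratio of -0.47 by FPKM. The median of that list was -1.05 in this step and 0.98 from immature B to mature B cells. Fam160b2, its paralogue, was 2.92-fold higher from pre-B to immature B cells (29.1 to 85 CPM). From immature B to mature B cells Hook3 was 7.1-fold higher and Aktip 4.9-fold lower, with 3 of 6 higher and 2 lower. Between mature B and pro-B cells 1 of 6, Fam160b2, was lower (79.5 to 37.7 CPM).

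In the list of the H2A ubiquitin response to DNA damage, 4 of 6 tested genes were lower and 1 higher from pro-B to pre-B cells. Rnf169 had the largest difference, followed by Brca1 (49.5 to 8.33 CPM, on 43 and 2 counts). Trp53bp1, which encodes 53BP1, the factor that RNF169 competes with at breaks, was named after its values were seen. Its direction rested on the scale: it was 2.57-fold higher from pro-B to pre-B cells by CPM (326 to 837) but had a log2 ratio of -1.02 by FPKM, and it was 4.22-fold lower from immature B to mature B cells by CPM (955 to 226) but had a log2 ratio of 0.76 by FPKM. The median of the list was -1.53 in the first of these steps and 0.68 in the other, against -0.26 and 0.07 over all genes. In immature B against pre-B cells 1 of 5 was higher and 1 lower, from immature B to mature B cells 2 of 6 were higher and 1 lower, and between mature B and pro-B cells 1 of 7 was higher and 1 lower.

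In the METTL list around Mettl9, 2 of 8 tested genes were higher and 0 lower from pro-B to pre-B cells, the RNA methyltransferases Mettl3 (56.6 to 155 CPM) and Mettl16 (42.6 to 91.6), and both had log2 ratios below 0 by FPKM (-0.17 and -2.84). The median of the list was 0.03 in this step and -1.10 from immature B to mature B cells. In immature B against pre-B cells 1 of 7, Mettl4, was higher (25 to 85 CPM). From immature B to mature B cells 5 of 8 were lower by CPM (21.6% over all genes), but Mettl1, Mettl4, Mettl8 and Mettl14 had log2 ratios of 0.84, 0.23, 0.56 and 1.94 by FPKM. The fifth, Mettl3, was 4.35-fold lower by CPM (177 to 40.8) with a log2 ratio of -0.30 by FPKM. Between mature B and pro-B cells 2 of 8 were lower, Mettl14 (44.9 to 16.5) and Mettl6 (108 to 42). Mettl9 itself was called in none of the 4 comparisons. Of the list of factors known to shape circRNA formation, Qk, which encodes the RNA-binding protein Quaking, was 3-fold lower from pro-B to pre-B cells (349 to 117 CPM, 1 of 8 lower) and 3.41-fold higher from immature B to mature B cells (85 to 290, 3 of 9 higher), with list medians of -0.83 and 0.40. None of that list was called from pre-B to immature B cells (0 of 8), and 1 of 9, Ilf2, was higher in mature B than in pro-B cells (4.06 to 31.4 CPM).

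Several genes of these lists hosted circRNAs of their own. Of the 22298 genes of the mRNA table, 760 were hosts. Among all genes 7569 were at 0 in every library, against 7 of the hosts. Each list around a host also included that host by choice. Whether a list held more hosts than other genes of like level was not tested. In the PRC2 list 2 of 11 did, Ezh2 and Jarid2 (12 reads), and in the SWI/SNF list 4 of 24, of which Arid1b, the paralogue of Arid1a, had 40 reads. The Arid1b reads were 10 in pro-B, 24 in pre-B, 4 in immature B and 2 in mature B cells, highest in another library than those of Arid1a. Foxp1 was the only host among the 4 FOXP genes and Mettl9 among the 10 METTL genes. Hook3 (4 reads) and Mdc1 (6 reads) were the other hosts in the lists around Fam160b1 and Rnf169. In the circRNA biogenesis list 4 of 11 (36.4%) were hosts, Mbnl2 with 13 reads, Adar and Mbnl1 with 8 each and Dhx9 with 4.

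The mRNA most like that of each host over the 4 libraries was sought among 1703 genes with at least 20 counts in every library, by the Euclidean distance of mean-centred log2(CPM + 1). For Ezh2 it was Smarca4 at 0.281 (2685, 1208, 220 and 303 CPM from pro-B to mature B), and then Bcl7a at 0.82. For Arid1a it was Nr3c1 at 0.0507 (234, 109, 157 and 307 CPM) and Ep400 at 0.088, for Foxp1 Mdm4 at 0.159 (303, 150, 139 and 482 CPM) and Scaf11 at 0.181, and for Mettl9 Mtpn at 0.0917 (290, 254, 175 and 233 CPM) and Pogz at 0.14. For Rnf169 they were Ahnak at 1.19 and Zfp36l2 at 1.29, but Rnf169 has 3 counts in pre-B cells and the minimum of 20 leaves out genes as low there. It also leaves out genes as low as Ezh2 in immature B cells (8 counts). The same holds for genes as low as Mettl9 in pre-B and immature B cells (9 and 6 counts). The 4 values of a gene share the same libraries, so these distances are a description.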

How the data were processed

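Total RNA libraries of 4 bone marrow B-cell stages were used (4 of 8 libraries in the series), 1 per stage, grouped by their labels. The miRNA libraries were not used. Per the study's methods, the authors removed rRNA reads, mapped strand-specific paired reads with HISAT2 and identified circRNAs with find_circ from unmapped reads, a circRNA being listed on at least 2 unique back-spliced reads in a library. The circRNA table holds read counts as deposited, and the RPM values the authors deposited are these counts over all back-spliced reads of the library. Estimated counts of StringTie 1.3.4 make up the mRNA and lncRNA tables, as deposited and not normalized, and were not rounded here. FPKM values deposited by the authors are scaled by length and by all fragments mapped to reference genes.

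The host genes, lists and comparisons were chosen with earlier results of these data known. CPM is the count over the total of the mRNA table. A gene was called at a 2-fold CPM ratio on at least 10 counts over both libraries, with a library under 3 counts set to 3. Intervals are exact at 95% (Clopper-Pearson, conditional binomial or Poisson) and cover counting error only. Of the nonzero counts of the hosts' circRNAs, 27 of 35 were even (84.5% over the table), so reads may have been counted in pairs and intervals may be too narrow. PCR copies were not removed by molecular identifiers. Without replicates no p-value was computed, other than in the alternative that follows the study's rule (edgeR 4.0.16 exact test at a dispersion of 0.0001, P of 0.05). Named genes were the 6 hosts with all their circRNAs, the circRNAs ranked between them, per list and step the 2 largest called genes with at least 20 counts, and the 2 nearest genes per host. Cops5, Ddx42 and Hprt were looked up outside this rule. Calls and intervals were tested on simulated Poisson counts at the depth of the mature B and pro-B libraries, with intervals checked for genes expected at 20 or more counts. Reads counted in pairs and the lower counts of the pre-B and immature B libraries were not simulated. Python 3.11.15 (scipy 1.17.1, pandas 2.3.3, numpy 2.4.6, matplotlib 3.10.9) and R 4.3.3 were used. Other scalings, count minimums and sets of circRNAs were tried.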

Additional observations from a re-analysis of the deposited data

Results flagged for a closer look

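The lncRNA table, which no comparison above used, listed 9 transcripts under the symbols of 4 of the 6 hosts, and 5 of them had counts above 0. These results are given because they lie outside the main measurement and passed the limit of 3 counts that a count of 0 allows. A Foxp1 transcript, ENSMUST00000075832, reached 39.1 estimated counts in mature B cells, with 36.6 in pro-B, 4.22 in pre-B and 2.23 in immature B cells. A second, ENSMUST00000113321, reached 31 in mature B cells, with 10, 0 and 8 in the other libraries. Another, ENSMUST00000175838, had its highest count, 5, in pre-B cells. The Rnf169 transcript ENSMUST00000174264 had 8.82 counts in pro-B, 0 in pre-B, 5.75 in immature B and 3.51 in mature B cells. All Foxp1 transcripts of the table together had 50.6, 9.22, 10.2 and 72.1 counts from pro-B to mature B, highest in mature B cells as the Foxp1 mRNA was. How reads were divided between these transcripts and the mRNA of the same gene was not tested.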

How the results depend on the processing

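No paired analysis was possible because each stage had 1 library. The 20 host log2 ratios kept their direction under TMM, RLE, rounding and no count minimum, and with FPKM every called one did, while the uncalled ratio of Mettl9 between mature B and pro-B cells went from -0.43 to 0.05. From pro-B to pre-B cells, 3 hosts were lower, against 1 with RLE and 5 with FPKM. From pre-B to immature B cells, 1 host was higher and 1 lower, against 0 and 0 with at least 50 counts and 0 higher with the edgeR exact test. Between mature B and pro-B cells, 2 hosts were lower, against 1 with TMM or RLE. Of the genes in the lists, from pro-B to pre-B cells 7 were higher and 20 lower, against 0 and 55 with FPKM. From pre-B to immature B cells 10 were lower, against 6 with FPKM, and from immature B to mature B cells 19 were higher and 11 lower, against 43 and 0. Counted in pairs, back-spliced reads per 1000 mRNA counts of the hosts were 35, 438, 315 and 36.7 from pro-B to mature B. With the leading circRNA of each host only, the hosts' share of back-spliced reads was 7.91% in pre-B and 4.74% in immature B cells. With FPKM, 9 of 20 host log2 ratios left their counting interval. With 3 to 89.1 mRNA counts per host in the pre-B and immature B libraries, differences near 2-fold were not resolved for Mettl9 and Rnf169. Nor were they for Ezh2 from immature B to mature B cells (interval on the log2 scale -1.07 to 1.40).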
